A study of Homo sapiens with 12 samples.

Results

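Eicosanoids are short-lived lipid messengers made from arachidonic acid, a fatty acid stored in membrane phospholipids. Cytosolic phospholipase A2 (PLA2G4A) frees the acid, the cyclooxygenases PTGS1 (COX-1, usually constitutive) and PTGS2 (COX-2, usually inducible) turn it into prostaglandin H2, and terminal synthases such as PTGES and TBXAS1 make prostaglandin E2 and thromboxane from that. In myeloid cells 5-lipoxygenase (ALOX5), helped by its activating protein ALOX5AP, instead makes leukotriene A4, which LTA4H converts to the neutrophil attractant leukotriene B4. PTGER4 encodes EP4, a receptor for prostaglandin E2, and PLA2G7 encodes a secreted hydrolase of platelet-activating factor and oxidised phospholipids that travels on LDL particles in plasma.

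The 10 genes named above were taken by symbol from a list of the pathway, and all 10 had a row among the 20117 genes of the deposited table of normalised counts. They were picked by symbol and role, with no threshold on a value, though earlier results of these data were known when the list was chosen. The libraries are bulk RNA-seq of total RNA from the human lines THP-1, a monocytic leukaemia line turned into macrophages with PMA, and EA.hy926, a fusion of umbilical vein endothelial cells with a lung carcinoma line. The groups were THP-1 with LDL, THP-1 control, EA.hy926 with LDL and EA.hy926 control, with 3 libraries labelled as biological replicates in each. LDL was native LDL from donors with cardiovascular disease, given at 100 µg/mL for 24 h; both lines and both treatments were kept without serum, THP-1 in RPMI-1640 and EA.hy926 in DMEM, so the line and its medium are 1 and the same split. Nothing else in the labels says that replicates came from separate cultures, so a p-value here reflects only how far these libraries spread, which may be technical.

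Reads recovered from the values ran from 6.232 to 7.961 M in THP-1 LDL, from 7.751 to 11.002 M in THP-1 control, from 4.325 to 7.781 M in EA.hy926 LDL and from 6.876 to 7.969 M in EA.hy926 control, and 1 read was worth 0.653 to 1.91 normalised counts. Of 10 macrophage markers, 8 averaged at least 10 normalised counts in THP-1 LDL and 9 in THP-1 control. CD68 was listed at 0 in both. It shares 1789 of its 2189 exon bases with AC016876.2 on the same strand, where reads of these genes cannot be told apart. The part of this in its zeros was not tested. MRC1 had 1 read in all of THP-1 LDL, against a mean of 28.0 normalised counts in THP-1 control. The summed level of the 10 markers was 31931 to 35536 in THP-1 LDL and 26051 to 28007 in THP-1 control. The markers did not move together: CSF1R, the largest part of the sum, averaged 17953 in THP-1 LDL and 9378 in THP-1 control, and ITGAM 2497 in THP-1 LDL and 4876 in THP-1 control. In EA.hy926, 8 of 10 endothelial markers averaged at least 10 with LDL and 9 in control, and of the macrophage markers only MSR1 did, at 177 in EA.hy926 LDL and 154 in EA.hy926 control. The endothelial markers summed to 20909 to 23262 in EA.hy926 LDL and 22393 to 23174 in EA.hy926 control. Of 6 lung epithelial markers in the table, 4 averaged at least 10 in both EA.hy926 groups. They summed to 12991 to 13167 in EA.hy926 LDL and 10248 to 11124 in EA.hy926 control. THP-1 also had endothelial markers, with ENG at 1874 in THP-1 LDL and 2049.7 in THP-1 control and PECAM1 at 1367 in THP-1 LDL and 1084 in THP-1 control, while CDH5, KDR, TEK, EMCN and ERG were listed at 0 there. Of other cells that make eicosanoids, the only platelet marker in the table, PPBP, was at 0 to 1.31 in every library, and the only mast cell marker in the table, KIT, was at 20.4 to 25.4 in THP-1 LDL and 57.5 to 84.5 in THP-1 control. Mitochondrial mRNA took 0.0383% to 0.0515% of reads in THP-1 LDL and 0.114% to 0.133% in THP-1 control, and the deposited totals averaged 9.15 M in THP-1 LDL and 7.22 M in THP-1 control; the part of these differences in the results below was not tested.

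PTGS2 and PLA2G4A are next to each other on chromosome 1, with 148.5 kb and 0 protein-coding genes between them in GENCODE release 29 (build GRCh38), and they moved in opposite directions in THP-1. The 250 bases before the RefSeq start of each (build GRCh38.p14) are therefore printed, 5′ to 3′ on the gene's own strand, with matches to the 6 motifs below in capitals. The PTGS2 window is chr1:186680424-186680673 on the minus strand and the PLA2G4A window is chr1:186828699-186828948 on the plus strand.
PTGS2: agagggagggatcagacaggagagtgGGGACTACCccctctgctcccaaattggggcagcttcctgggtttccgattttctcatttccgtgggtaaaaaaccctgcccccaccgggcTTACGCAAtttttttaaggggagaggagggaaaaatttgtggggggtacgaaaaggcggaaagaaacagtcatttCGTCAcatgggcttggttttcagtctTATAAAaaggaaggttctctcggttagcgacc
PLA2G4A: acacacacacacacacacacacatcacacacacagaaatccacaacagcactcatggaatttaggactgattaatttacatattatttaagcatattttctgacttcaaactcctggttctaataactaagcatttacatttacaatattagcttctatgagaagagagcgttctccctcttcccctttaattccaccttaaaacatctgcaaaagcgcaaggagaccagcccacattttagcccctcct

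The motifs were searched on both strands in 35116 windows of this length. They were GGGANNNCC (NF-kB type, in 20.1% of all windows), TTNNGCAA (C/EBP type, 9.05%), CGTCA (the core of a cyclic AMP response element, 21.2%), TATAAA (the box that places the start, 10.7%), TGANTCA (AP-1 type, 6.57%) and GAAANNGAA (IRF type, 6.88%). The PTGS2 window held the first 4 of these. The NF-kB type match lay 224 to 216 bases upstream of the start, the C/EBP type 133 to 126, the cyclic AMP response element core 58 to 54 and the start-placing box 32 to 27. The PLA2G4A window held none of the 6, which says only that these letters are not in this stretch. Of the 10 members 9 had a window. The letters of the NF-kB and IRF types were set after matches to longer forms had been seen. Which of the unprinted windows hold an NF-kB type match changed with that choice. For these types, only the windows of PTGS2 and PLA2G4A are therefore described. Of the other types, TATAAA was also matched in windows of PTGS1, which fell in THP-1, and TBXAS1, which was not called. TGANTCA was matched in a window of TBXAS1. Any link of the motifs to the direction of change was not tested. A match is a string of letters and not a shown binding site.

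In THP-1 macrophages given LDL, PTGS2, the inducible cyclooxygenase, rose together with the prostaglandin E2 receptor gene PTGER4 and with PLA2G7, while PLA2G4A, PTGS1, ALOX5 and LTA4H fell. TBXAS1 and ALOX5AP did not pass the test, and PTGES had too few reads to enter it. By limma on log2(normalised count + 1), with Benjamini-Hochberg adjustment over all genes at 0.05, 7 of the 9 members tested were called, 3 higher and 4 lower. That has to be read against a background in which 64.5% of the 16167 genes tested were called, 35.5% higher and 29.0% lower, so the number of calls is near the background. The LDL and control libraries did not overlap for 7 of the 9 members, against 68.9% of all genes tested. Both counts of 7 include PLA2G7, whose mean was high enough to be tested only in THP-1 LDL.

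**Figure D1:**
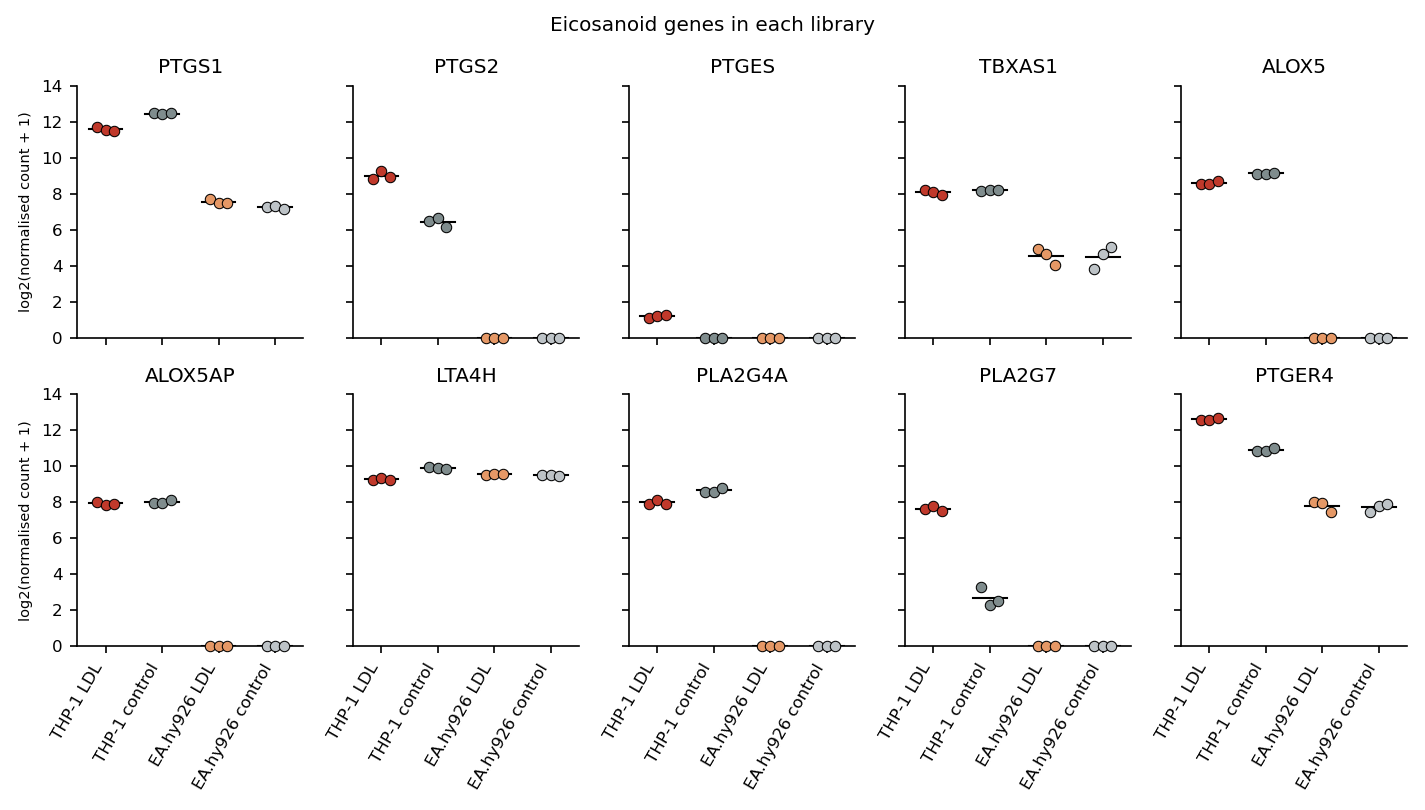
Normalised count of the 10 genes in each of the 12 libraries, as log2(normalised count + 1), with the group mean as a line. PTGS2, PLA2G7 and PTGER4 stand higher in THP-1 LDL than in THP-1 control, PTGS1, ALOX5, LTA4H and PLA2G4A lower, and 6 genes are listed at 0 in all EA.hy926 libraries.

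PLA2G4A, the enzyme that frees arachidonic acid on a calcium signal (chr1:186828953-186988981, plus strand), had 243, 279.9 and 239 normalised counts in THP-1 LDL, against 384, 377 and 448 in THP-1 control. All LDL libraries lay below all control libraries. The gene fell by 0.66 ± 0.10 on the log2 scale (SE, adjusted p = 6.7e-05 by limma), which is a 1.58-fold fall. In bulk RNA, fewer cells that use a gene and less RNA of it per cell cannot be told apart, here and in the results that follow.

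The cyclooxygenases changed in opposite directions. PTGS1 (chr9:122370530-122395703, plus strand) had 3341, 2997 and 2937 normalised counts in THP-1 LDL and 5732, 5524 and 5714 in THP-1 control. PTGS2 (chr1:186671791-186680427, minus strand) had 457, 615 and 484 in THP-1 LDL and 90.6, 101 and 72.4 in THP-1 control. Neither gene's groups overlapped.

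PTGS1 fell by 0.87 ± 0.064 on the log2 scale (adjusted p = 8.7e-08 by limma) and PTGS2 rose by 2.55 ± 0.14 (adjusted p = 6e-09), which is 5.84-fold. Per kilobase of annotated exon, PTGS1 stayed the more abundant of the pair in every THP-1 library. Its level per kilobase was 5.54 ± 1.11 times that of PTGS2 in THP-1 LDL and 59.7 ± 11.3 times in THP-1 control (SD, n = 3 each). PTGS2 made up 13.1%, 18.4% and 15.3% of the pair per kilobase in the LDL libraries and 1.71%, 1.98% and 1.37% in the control libraries. This share is a description of the pair, with no test of its own.

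Of the terminal synthases among the 10 genes, neither was called. PTGES, the inducible prostaglandin E synthase (chr9:129738331-129753047, minus strand), had 1 read in each THP-1 LDL library, worth 1.16, 1.31 and 1.46 normalised counts, and was listed at 0 in every THP-1 control library. Both groups are below the 3 reads taken as the floor per library, so no fold is given. TBXAS1, the thromboxane A synthase (chr7:139777051-140020325, plus strand), had 303, 277 and 249 normalised counts in THP-1 LDL and 293, 299 and 293 in THP-1 control. Its groups overlapped, and the difference of -0.10 on the log2 scale had a 95% interval of -0.30 to 0.11 (adjusted p = 0.379 by limma).

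The other prostaglandin E synthases were expressed in both THP-1 groups. PTGES3, also known as the HSP90 co-chaperone p23, averaged 1498 ± 160.1 normalised counts in THP-1 LDL and 1949 ± 59.5 in THP-1 control (SD, n = 3 each). It fell by 0.39 on the log2 scale (adjusted p = 0.00066 by limma). PTGES2, the membrane-associated form, averaged 377 ± 42.1 in THP-1 LDL and 309.8 ± 20.8 in THP-1 control. It was called higher at 0.28 on the log2 scale (adjusted p = 0.0269 by limma), but not under TMM scaling of the same reads (0.18, adjusted p = 0.138), nor by edgeR (adjusted p = 0.117) or DESeq2 (adjusted p = 0.135). That call was also lost without THP-1 LDL replicate 1 (adjusted p = 0.074) or 3 (0.102) and without THP-1 control replicate 1 (0.101) or 2 (0.0961). PTGDS, a prostaglandin D synthase, did not pass the test (0.68 on the log2 scale, adjusted p = 0.228), and without THP-1 LDL replicate 2 it did (1.16, adjusted p = 0.0259). PTGIS, the prostacyclin synthase, was listed at 0 in all 12 libraries, and no row of the deposited values carried the symbol HPGDS. Of the 8 genes of the list of cyclooxygenases and prostanoid synthases that were tested, 2 rose, 2 fell and 4 were not called. Of all genes tested, 64.5% were called, 35.5% higher and 29.0% lower. The median change of the list was -0.12, beside 0.07 for all genes tested.

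In the leukotriene branch, the enzymes ALOX5 and LTA4H were lower in THP-1 LDL, while ALOX5AP, which works with ALOX5, did not pass the test. ALOX5, the lipoxygenase that starts the branch (chr10:45374176-45446119, plus strand), had 383, 382 and 424 normalised counts in THP-1 LDL and 561, 557 and 579 in THP-1 control. LTA4H (chr12:96000828-96043520, minus strand), which makes leukotriene B4 and is also an aminopeptidase, had 613, 639 and 604 in THP-1 LDL and 1012, 955 and 919 in THP-1 control. The groups of both genes were apart.

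ALOX5 fell by 0.51 ± 0.076 on the log2 scale (adjusted p = 6.2e-05 by limma) and LTA4H by 0.64 ± 0.068 (adjusted p = 3.3e-06). ALOX5AP, the membrane protein that presents arachidonic acid to the lipoxygenase (chr13:30713478-30764426, plus strand), had 262, 229.9 and 239 normalised counts in THP-1 LDL and 245, 248 and 282 in THP-1 control. These groups overlapped, and the difference of -0.08 had a 95% interval of -0.30 to 0.13 (adjusted p = 0.481 by limma). Exons of LTA4H share 582 and 121 bases with a pair of antisense genes, and since the strand setting of the counting is not given, reads of these cannot be told apart from its own.

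PLA2G7 (chr6:46704201-46735693, minus strand) showed the steepest change of the 10 genes. It had 193, 223 and 184 normalised counts in THP-1 LDL, against 8.71, 3.92 and 4.70 in THP-1 control, where these values stand for 5 to 10 reads a library. It rose by 4.95 ± 0.26 on the log2 scale (adjusted p = 3.7e-09 by limma); because 1 is added before the logarithm, this understates the change of a gene so low in control cells. It passed the filter on low values only through its LDL libraries. Its exons share 119 bases with TDRD6 on the other strand.

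PTGER4, the EP4 receptor that raises cyclic AMP (chr5:40679498-40693735, plus strand), had 6179, 6165 and 6435 normalised counts in THP-1 LDL and 1873, 1871 and 2079 in THP-1 control. The groups were far apart relative to their spread. It rose by 1.69 ± 0.062 on the log2 scale (adjusted p = 1.1e-10 by limma), which is 3.23-fold.

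**Figure D2:**
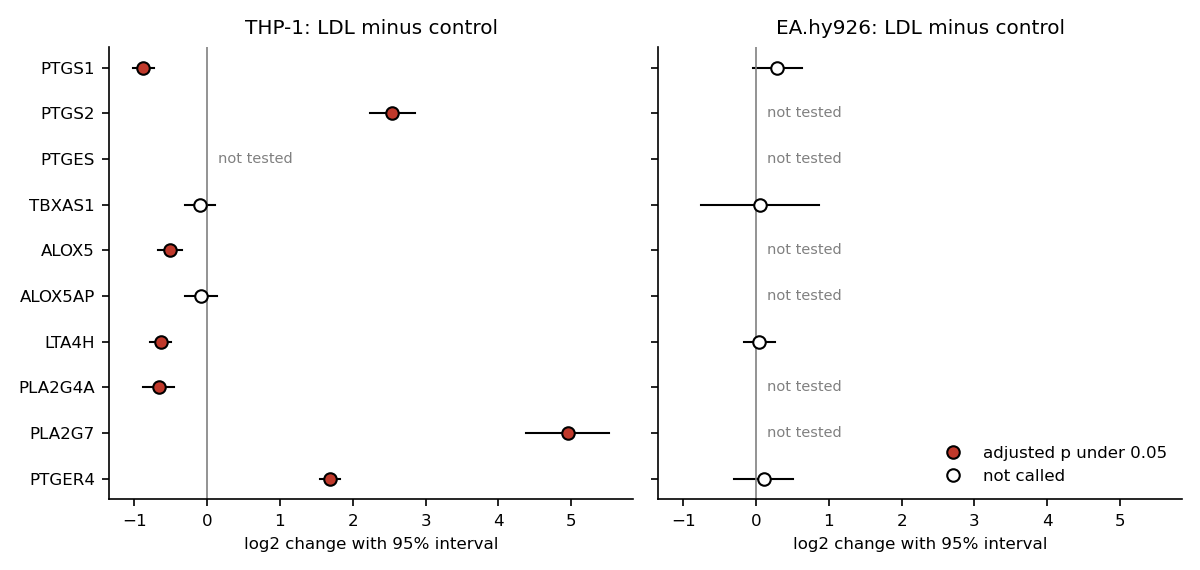
Change with LDL on the log2 scale (horizontal axis) of each gene, with its 95% interval, in THP-1 and in EA.hy926. Filled points are called at an adjusted p under 0.05. In THP-1, PLA2G7 lies at 4.95, PTGS2 at 2.55 and PTGER4 at 1.69; in EA.hy926 all 4 tested genes are open.

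Against the changes of all genes tested in THP-1, PLA2G7 stood above 99.2% of them, PTGS2 above 95.4% and PTGER4 above 91.1%. Since PLA2G7 passed the filter on low values only through its LDL libraries, a rise was built into its being tested. The falls were less extreme: 13.5% of genes had a lower value than PTGS1, 18.4% lower than PLA2G4A, 19.2% lower than LTA4H and 23.3% lower than ALOX5. The median change of all genes was 0.07 on the deposited scale, -0.03 under TMM scaling and -0.08 under quantile normalization. Relative to that median, PTGS2 stood at 2.47 on the deposited scale and 2.55 under quantile normalization, PTGER4 at 1.62 and 1.34, PTGS1 at -0.95 and -1.31, and ALOX5 at -0.58 and -0.53. The deposited scale put 55.1% of all called genes on the higher side and quantile normalization 44.9%; the 7 calls and their directions were the same under each scaling tried.

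Levels can be compared between genes only per kilobase of exon. In THP-1 LDL the order was led by PTGER4 at 1580.3 ± 38.3 normalised counts per kilobase and PTGS1 at 534 ± 37.7 (SD, n = 3 each). ALOX5AP at 142 ± 9.77 and ALOX5 at 106 ± 6.47 followed. PLA2G7 at 98.7, PTGS2 at 98.4, PLA2G4A at 88.3 and LTA4H at 84.1 could not be ranked, since the ranges of ALOX5 and each next gene down to LTA4H overlapped. TBXAS1 at 44.6 and PTGES at 0.69 closed the order.

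In THP-1 control PTGS1 led with 977 ± 19.9 normalised counts per kilobase and PTGER4 followed with 490.02 ± 30.1 (SD, n = 3 each). ALOX5 at 152, ALOX5AP at 151, PLA2G4A at 140.2 and LTA4H at 131 overlapped from each to the next. TBXAS1 at 47.6, PTGS2 at 16.7 and PLA2G7 at 2.85 came last, with ranges apart, above PTGES at 0. With the length of the longest transcript in place of all exons, TBXAS1 moved from rank 9 to rank 6 in THP-1 LDL, and the top 4 kept their order in both groups.

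**Figure D3:**
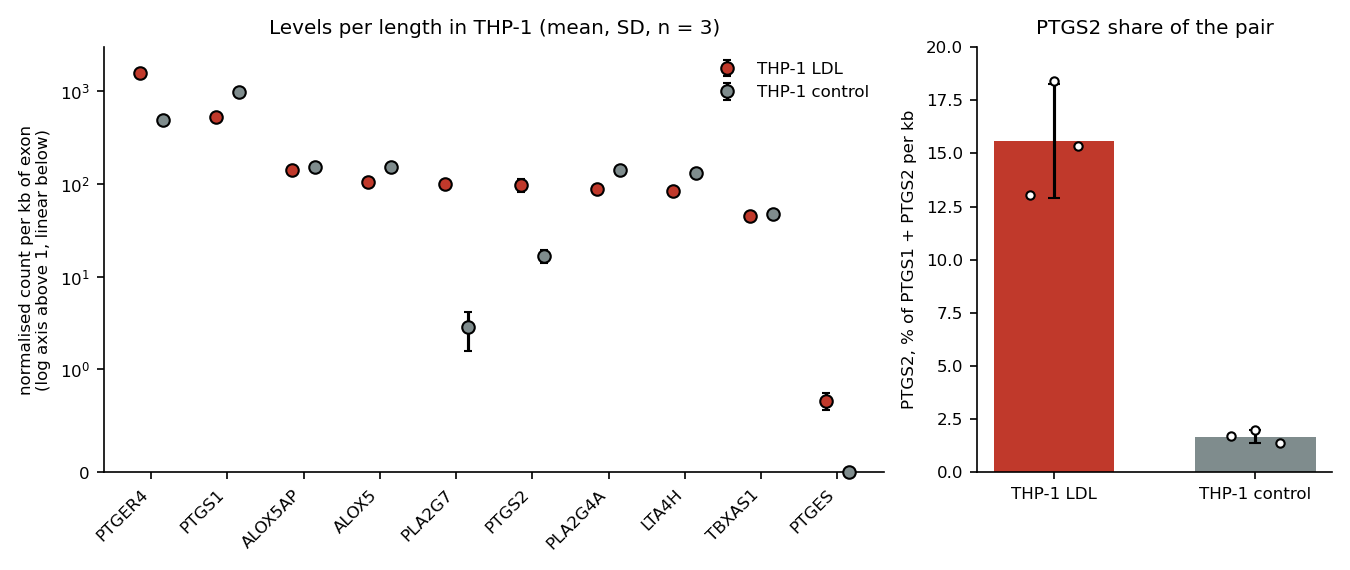
Left, mean normalised count per kilobase of exon with SD (n = 3) in THP-1 LDL and THP-1 control, on an axis that is logarithmic above 1 and linear below, with genes ordered by their level in THP-1 LDL. Right, PTGS2 as a percent of PTGS1 plus PTGS2 per kilobase, each library a point, the bar the mean and its line the SD; PTGS2 makes up 15.6% in THP-1 LDL and 1.69% in THP-1 control on average.

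The wider pathway was followed in 9 lists with 94 genes, of which 71 were in the table and 59 were tested in THP-1. Of these 59 genes, 15 rose, 28 fell and 16 were not called by limma; by edgeR 13 rose and 32 fell, and by DESeq2 12 rose and 27 fell. That has to be read against 64.5% of all genes tested called by limma, 35.5% higher and 29.0% lower. The median change was -0.36 on the log2 scale, beside 0.07 for all genes tested. Among the genes called by limma, DPEP1, DPEP2 and ALOX15 passed the filter on low values only through THP-1 control. PLA2G7 passed it only through THP-1 LDL. Exons of LPCAT3 (with EMG1), CYP1B1, CBR3, PLA2G4C, PAFAH1B3, MGST2, PLA2G15, PTGDS, PNPLA8, ACSL4, MBOAT1 and EPHX1 overlap those of other genes, so part of their reads may belong to those.

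Among the enzymes that release arachidonate or return it to membranes, single genes moved far while others of the same function went the other way. PLA2G4C, a calcium-independent relative of PLA2G4A, averaged 1205 ± 59.95 normalised counts in THP-1 LDL and 242 ± 19.2 in THP-1 control (SD, n = 3 each) and rose by 2.31 on the log2 scale (adjusted p = 6.5e-11 by limma). PLA2G15, the lysosomal phospholipase A2, averaged 551 ± 60.6 in THP-1 LDL and 1698 ± 43.4 in THP-1 control and fell by 1.63 (adjusted p = 1.9e-09). PNPLA8 was called higher at 0.47 (adjusted p = 0.00988), a call that was lost without THP-1 control replicate 3 (adjusted p = 0.0574) or with all 12 libraries in one fit (adjusted p = 0.117). In the release list 2 of 7 tested genes rose and 3 fell. The median of -0.62 was the value of PLA2G4B, which was not called and had 27 reads over the THP-1 LDL libraries. For uptake, ACSL4, which activates arachidonate for storage in phospholipids, rose by 1.24 (adjusted p = 1.2e-08), while the lysophospholipid acyltransferases MBOAT1 and LPCAT3 fell by 1.71 (adjusted p = 8.7e-08) and 0.78 (adjusted p = 2.5e-05). In that list 2 of 6 rose and 3 fell, with a median of -0.36. The counts of both lists have to be read against 64.5% of all genes tested called, 35.5% higher and 29.0% lower.

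Of 6 prostanoid receptor genes tested, 4 rose and 2 fell, with a median of 0.90, where 64.5% of all genes tested were called, 35.5% higher and 29.0% lower. PTGIR, the prostacyclin receptor, which like EP4 raises cyclic AMP, ranged from 206 to 287 normalised counts in THP-1 LDL and from 10.3 to 18.3 in THP-1 control, and it rose by 4.01 ± 0.22 on the log2 scale (adjusted p = 5.6e-09 by limma). PTGER2 (EP2) averaged 43.7 ± 1.59 in THP-1 LDL and 23.2 ± 10.1 in THP-1 control and rose by 0.96 (adjusted p = 0.00828). PTGER3 (EP3) averaged 38.3 ± 10.2 in THP-1 LDL and 20.7 ± 3.01 in THP-1 control and was called higher at 0.83 (adjusted p = 0.014), but not by DESeq2 (adjusted p = 0.0595), under quantile normalization (adjusted p = 0.0881), without THP-1 control replicate 3 (adjusted p = 0.0522) or without THP-1 LDL replicate 3 (adjusted p = 0.0545). TBXA2R, the thromboxane receptor, fell by 0.68 (adjusted p = 0.00248), and PPARG, a nuclear receptor that binds prostaglandin J2 derivatives, fell by 0.59 (adjusted p = 1.7e-05). No row of the deposited values carried the symbol PTGER1 (EP1).

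Of 5 tested genes of prostaglandin transport and breakdown, 3 were called lower and 0 higher. Of all genes tested, 64.5% were called, 35.5% higher and 29.0% lower. The reductases PTGR1 and PTGR3 fell by 0.74 (adjusted p = 9.8e-05 by limma) and 0.70 (adjusted p = 8.3e-05), and CBR3, a carbonyl reductase, by 0.62 (adjusted p = 0.00789); the other 2 of 5 tested were not called, and the median was -0.62. HPGD, which starts the breakdown of prostaglandin E2, was listed at 0 in all 12 libraries.

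Of 11 tested genes of leukotriene synthesis and breakdown, 8 fell, 1 rose and 2 were not called, with a median of -0.64, where 29.0% of all genes tested were called lower and 35.5% higher. The falls include DPEP1, with means of 4.21 in THP-1 LDL and 16.9 in THP-1 control, and DPEP2, with 7.14 and 25.7. Both passed the filter on low values only through THP-1 control, so a fall was built into their being tested. LTC4S, which couples leukotriene A4 to glutathione, averaged 15.8 ± 5.15 normalised counts in THP-1 LDL and 49.4 ± 1.44 in THP-1 control and fell by 1.64 on the log2 scale (adjusted p = 0.00013 by limma). MGST2, which can carry out the same step, fell by 1.24 (adjusted p = 9e-07), and COTL1, an actin-binding protein that also binds 5-lipoxygenase, fell by 1.65 (adjusted p = 1.2e-09). ABCC1, the exporter of leukotriene C4, was the 1 gene that rose, by 0.73 (adjusted p = 6.5e-07). Among the receptors CYSLTR1, the cysteinyl leukotriene receptor, fell by 1.56 (adjusted p = 6.1e-07), while the other 3 of 4 tested were not called; these include LTB4R and LTB4R2, the leukotriene B4 receptors, whose exons overlap each other.

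The platelet-activating factor list held the steepest rise outside the 10 genes. PTAFR, the receptor for platelet-activating factor, ranged from 414 to 453 normalised counts in THP-1 LDL and from 17.0 to 22.6 in THP-1 control, and it rose by 4.44 ± 0.15 on the log2 scale (adjusted p = 4.5e-11 by limma). LPCAT1, an acyltransferase, rose by 0.84 (adjusted p = 4.6e-07), and PAFAH1B3, an intracellular hydrolase subunit, fell by 1.64 (adjusted p = 3.9e-06). In all, 3 of 8 tested rose, PLA2G7 among them, and 3 fell, with a median of -0.01. Of the other lipoxygenase and epoxide enzymes, the epoxide hydrolases EPHX1 and EPHX2 fell by 0.75 (adjusted p = 5.4e-05) and 0.97 (adjusted p = 0.0016), and CYP1B1, a cytochrome P450 that also oxidises arachidonate, rose by 0.39 (adjusted p = 0.00215). In that list 1 of 4 tested rose and 3 fell, with a median of -0.86. The falls include ALOX15, with means of 7.91 in THP-1 LDL and 32.9 in THP-1 control. It passed the filter on low values only through THP-1 control, so a fall was built into its being tested. For both lists the share over all genes tested was 64.5% called, 35.5% higher and 29.0% lower.

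**Figure D4:**
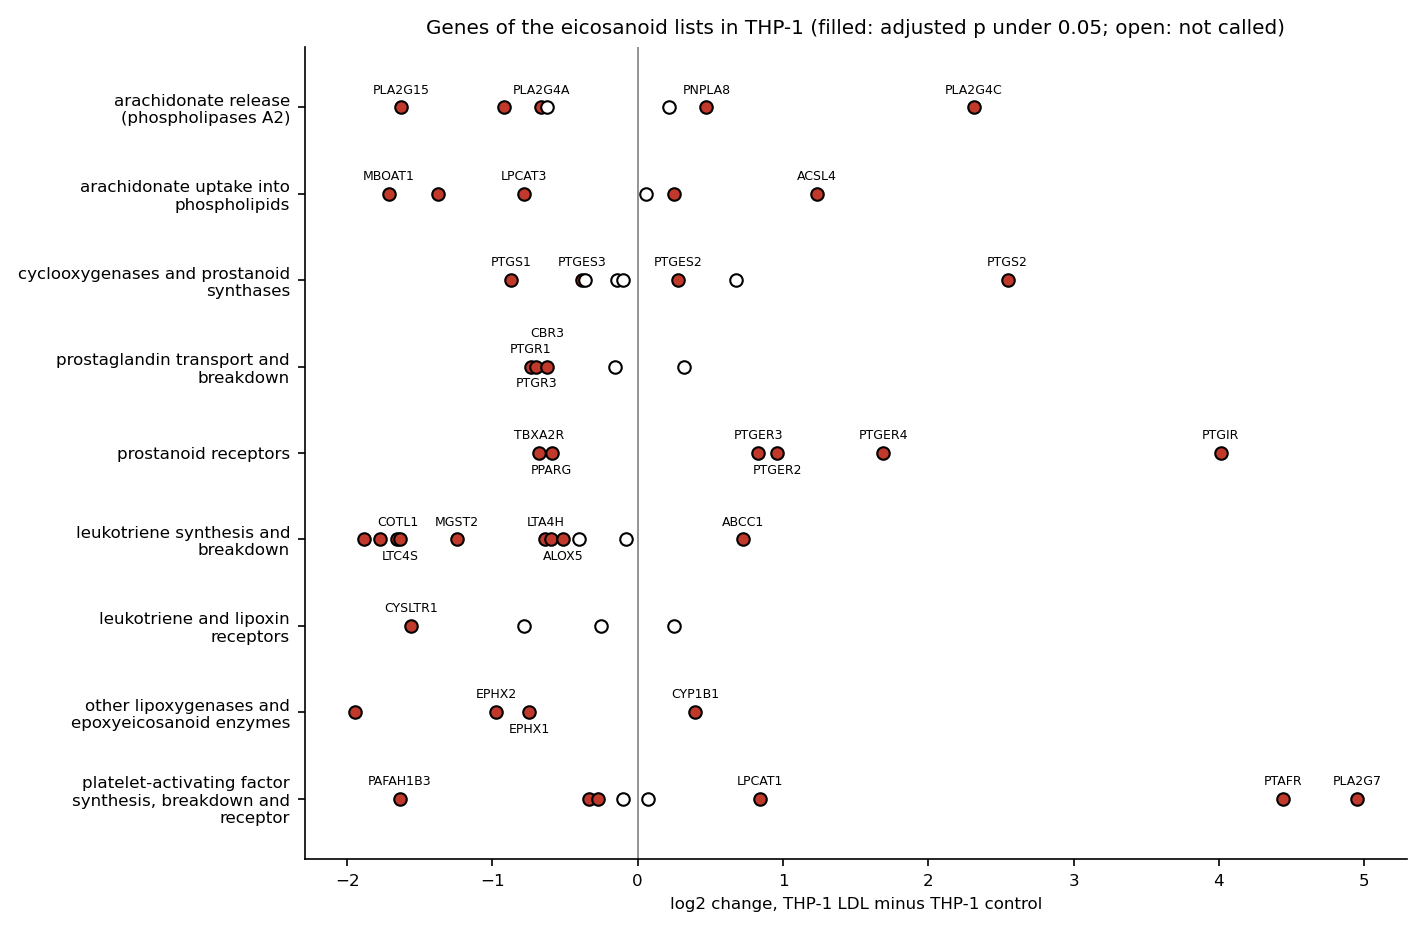
Change with LDL in THP-1 on the log2 scale (horizontal axis) of the 59 tested genes of the pathway, by list. Called genes are filled, and the described ones are named other than DPEP1, DPEP2 and ALOX15. PLA2G7 at 4.95, PTAFR at 4.44 and PTGIR at 4.01 stand apart on the right. Of 11 genes of leukotriene synthesis and breakdown, 8 are called on the left, DPEP1 and DPEP2 among them. These passed the filter on low values only through THP-1 control.

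In EA.hy926 no member was called, and 4 of the 10 had values above 0. PTGS2, PTGES, ALOX5, ALOX5AP, PLA2G4A and PLA2G7 were listed at 0 in all 6 libraries. Whole groups at 0 were common in this table: 4006 of the genes tested between the untreated lines were listed at 0 in 1 line, with means of up to 27431 in the other, so no fold is given against such a group. Whether these zeros are counts of no reads or were set by a filter before the table was joined was not tested, and they are not read as absence. The remaining 4 members were present with LDL and without it.

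PTGS1 had 213, 178 and 178 normalised counts in EA.hy926 LDL and 156, 163 and 143 in EA.hy926 control. It was the 1 member of 4 whose groups did not overlap, against 16.4% of all genes tested, and the difference of 0.29 on the log2 scale had a 95% interval of -0.04 to 0.63 (adjusted p = 0.508 by limma). LTA4H had 719, 762 and 765 in EA.hy926 LDL and 732, 732 and 709.6 in EA.hy926 control, a difference of 0.05 with an interval of -0.16 to 0.26 (adjusted p = 0.888 by limma).

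PTGER4 had 258, 250.2 and 175 normalised counts in EA.hy926 LDL and 172, 217 and 242 in EA.hy926 control, with overlapping groups and a difference of 0.10 (interval -0.29 to 0.50; adjusted p = 0.869 by limma). TBXAS1 was near 23 in both groups, at 30.5, 24.8 and 15.7 in EA.hy926 LDL and 13.3, 24.1 and 32.5 in EA.hy926 control, a difference of 0.06 with a wide interval of -0.75 to 0.87 (adjusted p = 0.967 by limma). That interval holds changes of either direction, so these libraries, with 13 to 28 reads of TBXAS1 each, do not settle its change.

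Of these 4 members 0 were called by limma, and 0 at an unadjusted p under 0.05; edgeR and DESeq2 on recovered reads called 0 as well. The background was low too, with 2.01% of 14202 genes called, 0.873% higher and 1.13% lower. Of the 285 calls, 186 were of genes listed at 0 throughout one of the EA.hy926 groups, and among genes with a value above 0 in both groups 0.706% were called. The scatter between replicates also differed, measured as chi-square per degree of freedom over genes with at least 20 reads in a pair. It was 3.58 to 18.5 in EA.hy926 LDL and 6.12 to 12.5 in EA.hy926 control. In THP-1 LDL it was 5.28 to 11.1 and in THP-1 control 1.85 to 2.36. Its part in the low share of calls was not tested. Over all lists, 43 genes were tested in EA.hy926 and 0 were called by limma, edgeR or DESeq2, while 5 had an unadjusted p under 0.05 by limma, 5 by edgeR and 3 by DESeq2. The 5 by limma were LPCAT2, ACSL3 and PLA2G12A on the lower side and COTL1 and PTGR1 on the higher side.

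Per kilobase of exon the order in EA.hy926 was the same with and without LDL, with ranges apart between neighbours. LTA4H led with 102 ± 3.49 normalised counts per kilobase in EA.hy926 LDL and 98.6 ± 1.76 in EA.hy926 control (SD, n = 3 each). PTGER4 followed at 57.5 ± 11.6 in EA.hy926 LDL and 53.2 ± 8.94 in EA.hy926 control, and PTGS1 came next at 32.7 ± 3.53 in EA.hy926 LDL and 26.6 ± 1.82 in EA.hy926 control. TBXAS1 was lowest at 3.82 ± 1.20 in EA.hy926 LDL and 3.76 ± 1.55 in EA.hy926 control.

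The response to LDL itself was compared between the lines by an interaction term for the 4 members with values in both, although line and medium are the same split. The change in THP-1 minus that in EA.hy926 was -1.17 ± 0.13 on the log2 scale for PTGS1 (adjusted p = 1.1e-06 by limma) and -0.68 ± 0.11 for LTA4H (adjusted p = 8.2e-05). It was 1.59 ± 0.19 for PTGER4 (adjusted p = 2.1e-06). TBXAS1 did not pass (-0.16, 95% interval -0.95 to 0.63, adjusted p = 0.759). These are 3 calls among 4 members, 1 higher and 2 lower, against 47.1% of 12534 genes, 25.2% higher and 21.9% lower, called the same way. The share of higher among all these calls was 53.4% on the deposited scale and 42.8% under quantile normalization.

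Without LDL, each of the 4 members with values in both lines was called higher in THP-1 control than in EA.hy926 control, by limma over all 16948 genes tested, of which 83.2% were called, 45.7% higher and 37.5% lower in THP-1; with genes listed at 0 in a group left out, these 4 were tested and 4 called. The libraries of the lines did not overlap for these 4, as for 84.7% of all genes tested, a share that includes the genes listed at 0. PTGS1 averaged 5657 ± 115 normalised counts in THP-1 control and 154 ± 10.5 in EA.hy926 control (SD, n = 3 each), a difference of 5.19 ± 0.067 on the log2 scale (adjusted p = 3.8e-09 by limma). TBXAS1 averaged 295 ± 3.68 in THP-1 control and 23.3 ± 9.63 in EA.hy926 control, a difference of 3.69 ± 0.30 (adjusted p = 1.9e-05). PTGER4 averaged 1941 ± 119 in THP-1 control and 211 ± 35.4 in EA.hy926 control, a difference of 3.21 ± 0.13 (adjusted p = 4.4e-07).

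LTA4H differed least, with 962 ± 46.8 in THP-1 control and 725 ± 12.9 in EA.hy926 control, a difference of 0.41 ± 0.059 on the log2 scale (adjusted p = 0.00052 by limma). The other 4 tested, PTGS2, ALOX5, ALOX5AP and PLA2G4A, entered only through THP-1; all 4006 genes of that kind were called, so their calls say nothing more and no fold is given, and PLA2G7 and PTGES were below the filter in both groups. Among the genes with values in both lines, 78.0% of 12942 were called.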

How the data were processed

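For 12 libraries in 4 groups of 3, the authors deposited normalised counts (a signal: reads per gene over one factor per library). Per the submitters' processing notes, the tools were FastQC, MultiQC, STAR, HTSeq and DESeq2, with build GRCh38. Their versions, the annotation, the strand setting and any filter stand as not given in the sources used here. All 100.0% of values were whole multiples of the worth of 1 read within 0.001, so reads were recovered; 0 sample columns were left unused. Symbols matched 20104 identifiers, and lengths came from GENCODE 29.

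Groups were compared with limma 3.58.1 (R 4.3.3), with an intensity trend, on log2(value + 1), for genes whose mean reached 10 in either group compared, two-sided, adjusted by Benjamini-Hochberg at 0.05; intervals are 95%. The line difference used all 12 libraries. Alternatives included edgeR 4.0.16 and DESeq2 1.42.0 on recovered reads, other scalings, filters and pseudocounts, and leaving out each library. Fits were also run on simulated data in which few genes changed, up and down alike. In THP-1, 64.5% of the genes tested were called, so that run does not bear on the scaling here. Members and lists were chosen with earlier results of these data known; beyond the members, named genes are up to 3 per list and line with the smallest adjusted p among those whose mean reached 50 in either group, plus 10 set by name (PTGES2, PTGES3, PTGDS, HPGDS, PTGIS, HPGD, LTC4S, PTGER1, PTGER2 and PTGER3). The EA.hy926 genes named at an unadjusted p were chosen after their values were seen. DPEP1, DPEP2 and ALOX15 are named only because they passed the filter on low values through THP-1 control alone.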

Additional observations from a re-analysis of the deposited data

Results flagged for a closer look

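The change with LDL differed between the lines, by the interaction term of limma over all 12 libraries, for 19 of the genes described above. Such calls were common: 23 of the 38 pathway genes tested and 47.1% of all 12534 genes tested passed. Line and culture medium cannot be told apart in this difference. Each value is the log2 change in THP-1 minus that in EA.hy926.

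Among the members the difference was -1.17 for PTGS1, -0.68 for LTA4H and 1.59 for PTGER4, whose changes in EA.hy926 lay between 0.05 and 0.29. Of the 16 other pathway genes, 6 had a difference above 0. These were PTGIR at 4.11, PLA2G4C at 2.14, ACSL4 at 1.45, LPCAT1 at 0.96, PNPLA8 at 0.86 and ABCC1 at 0.62. The other 10 had a difference below 0. COTL1 stood at -2.00, PLA2G15 at -1.62, PAFAH1B3 at -1.61, MGST2 at -1.30, CBR3 at -1.19, PTGR1 at -1.14, LPCAT3 at -0.95, EPHX1 at -0.91, PTGR3 at -0.62 and PTGES3 at -0.40. The changes of these 16 in EA.hy926 ran from -0.39 to 0.57. The PNPLA8 difference (adjusted p = 0.0379) and the PTGES3 difference (adjusted p = 0.0273) were each lost under several of the alternatives tried. For PNPLA8 these included leaving out THP-1 LDL replicate 2 or 3, THP-1 control replicate 2 or 3, EA.hy926 LDL replicate 1 or EA.hy926 control replicate 1 or 2 (adjusted p up to 0.105). For PTGES3 they included leaving out THP-1 LDL replicate 1 or 3, THP-1 control replicate 1 or 2, EA.hy926 LDL replicate 3 or EA.hy926 control replicate 3 (adjusted p up to 0.0784).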

How the results depend on the processing

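In THP-1, 7 members were called in every alternative but 1, in the same directions; with no filter on low values PTGES entered at 1 read a library and made it 8. Leaving out each library gave 9174 to 10446 called genes (10425 with all). With the replicate number as a block, 10377 genes were called in THP-1, 231 in EA.hy926, 5166 for the line difference and 14211 between the untreated lines, and no member call changed. The numbers were not taken as pairs, since the labels give no shared origin for a replicate number. In their deviations from the group means, same-numbered libraries correlated at -0.326 to 0.065. Differently numbered ones did so at -0.129 to 0.382, both ends in EA.hy926. In EA.hy926 the 285 called genes became 466 with no filter, 45 at a mean of at least 50, 48 without genes listed at 0 throughout a group and 473 with all 12 libraries in one fit, and 220 to 341 when each library was left out; no member was called in any of these. Between the untreated lines, 8 members called became 4 without the genes listed at 0, since the other 4 are at 0 in EA.hy926. Signs turned for TBXAS1 in EA.hy926 (-0.28 to 0.33 over leaving out each library; 0.06 with all) and its line difference (-0.43 to 0.19), and for PTGER4 in EA.hy926 (-0.032 to 0.28). TBXAS1 turned without EA.hy926 LDL replicate 1 or control replicate 1 and PTGER4 without that control library. None of these passed the test, and the cause was not tested. TBXAS1 had 13 to 28 reads a library in EA.hy926.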
